A study of Mus musculus with 6 samples.

Results

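Chief cells, the enzyme-secreting cells at the base of the gastric gland, are described here by 10 of their transcripts in libraries of sorted mouse parietal cells. The transcripts encode 2 pepsinogens (Pgc, Pga5), gastric intrinsic factor (Gif), acidic chitinase (Chia), colipase (Clps), 3 lipases or lipase-related proteins (Pnliprp2, Pnliprp1, Lipf), a carboxypeptidase (Cpb1) and the transcription factor BHLHA15. They were chosen by symbol among the 23284 genes of the deposited table, and all 10 were found under those symbols. RNA was measured in 6 libraries from mouse stomach, 3 control and 3 noggin. The control cells have the genotype Transgenic-Tom in the labels, and the noggin cells Transgenic-Tom-nog. In the noggin animals the H+/K+ ATPase promoter, which is active in parietal cells, drives both Cre and noggin, an extracellular protein that binds and blocks BMPs (bone morphogenetic proteins), and Cre switches on the red fluorescent protein tdTomato from the Rosa26 locus. Cells of both groups carried tdTomato and were sorted by it on a flow cytometer. The sources used here do not give the strain, age or sex of the mice, nor the number of animals behind a replicate. The p-values therefore measure only how much these 6 libraries vary.

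Chief cells arise from mucous neck cells as these move toward the gland base, and they store their products in large zymogen granules. Pepsinogens are released as inactive precursors and cut themselves to pepsins in acid. In mice, unlike in humans, intrinsic factor, the carrier for vitamin B12, is made by chief cells rather than parietal cells. BHLHA15, also known as MIST1, is the basic helix-loop-helix factor that builds up the secretory apparatus of the mature chief cell.

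Promoter sequence from RefSeq (GRCm38.p6) was matched for 8 of the 10 genes, all but Pga5 and Clps, and the 250 bases before the transcript start were searched. The windows of 3 genes are printed 5′ to 3′ because the results turn on them: Pgc, the most abundant transcript of the control libraries, Pnliprp1, the 1 member that passed the test between groups, and Pnliprp2, its neighbour. Capitals mark the TATA box motif TATAAA. The Pgc window is chr17:47726592-47726841, the Pnliprp1 window chr19:58728637-58728886 and the Pnliprp2 window chr19:58759473-58759722, all on the plus strand.
Pgc: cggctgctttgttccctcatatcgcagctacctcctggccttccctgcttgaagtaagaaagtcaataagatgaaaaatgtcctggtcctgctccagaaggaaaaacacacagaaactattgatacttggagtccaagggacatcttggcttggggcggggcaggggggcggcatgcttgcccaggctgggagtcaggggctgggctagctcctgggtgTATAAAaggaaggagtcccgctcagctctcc
Pnliprp1: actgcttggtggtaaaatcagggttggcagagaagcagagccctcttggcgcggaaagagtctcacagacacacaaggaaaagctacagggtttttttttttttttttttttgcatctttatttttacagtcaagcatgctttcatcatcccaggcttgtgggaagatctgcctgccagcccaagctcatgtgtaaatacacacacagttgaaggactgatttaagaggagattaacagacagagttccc
Pnliprp2: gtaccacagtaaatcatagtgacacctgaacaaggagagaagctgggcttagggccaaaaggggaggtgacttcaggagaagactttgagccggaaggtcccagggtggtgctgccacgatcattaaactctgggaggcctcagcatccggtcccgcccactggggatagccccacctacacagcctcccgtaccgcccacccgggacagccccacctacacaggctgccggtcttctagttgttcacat
On either strand, TATAAA was found in 2 of the 8 windows, those of Pgc (position -31 from the start) and Chia (position -43), and in 12.4% of all 32851 windows of the table. Positions count from the RefSeq start. The Chia window, chr3:106113132-106113381, runs past the gene start of 106113229 given below, which is from GENCODE. The E-box letters CATATG and CAGCTG, of the kind bound by basic helix-loop-helix factors, were in 0 of the 8 windows and in 3.46% and 13% of all windows. A missing match says only that these letters are not in this window. Pnliprp1 (chromosome 19, 58728887 to 58744169) and Pnliprp2 (chromosome 19, 58759719 to 58777534) lie 15549 bases apart on the same strand in mm10.

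All values are FPKM, fragments scaled by transcript length and library size, as deposited. The sequencing depth behind them is unknown, so no counting interval or detection limit can be given. Total FPKM was 595736 to 669124 in control and 797168 to 1188190 in noggin libraries. Noggin replicate 3 had the most genes listed at 0, 9270 against 5553 to 8192 in the other 5 libraries. The transgene was checked first: Nog was at 1.97, 0.871 and 1.09 FPKM in control replicates 1 to 3 and at 2734, 2289 and 2281 FPKM in noggin replicates 1 to 3, so every library matched its label.

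The libraries are labelled as parietal cells, and chief cell transcripts headed all 6 of them. Pgc was the most abundant of all genes in every control library, with Clps second, and Clps was the most abundant in every noggin library, with Pgc second. The proton pump subunits that define the parietal cell were lower than both in each library: Atp4a ranged from 5433 to 16218 FPKM and Atp4b from 16877 to 25184 FPKM. How much of the chief cell RNA came from chief cells among the sorted cells was not tested. In bulk RNA, fewer cells of a type and less RNA per cell cannot be told apart.

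Of the 10 members, 8 reached at least 1 FPKM in at least 3 libraries and were tested. Pnliprp1 was higher in noggin libraries and 7 did not pass the test. In all 10644 tested genes 2.44% were called, and 1.75% were called higher. At an unadjusted p under 0.05 in the same limma fit, 2 of the 8 members (Pnliprp1 and Pnliprp2) and 26.7% of all tested genes passed. Log2 fold changes, computed on log2(FPKM + 1) as noggin minus control, were positive for 6 of the 8 and negative for 2, with a median of 0.87 against -0.03 for all tested genes. The groups did not overlap for Clps, Pnliprp2 and Pnliprp1, all higher in noggin libraries, as was so for 20.3% of all tested genes. On this scale the change of low genes is understated.

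**Figure D1:**
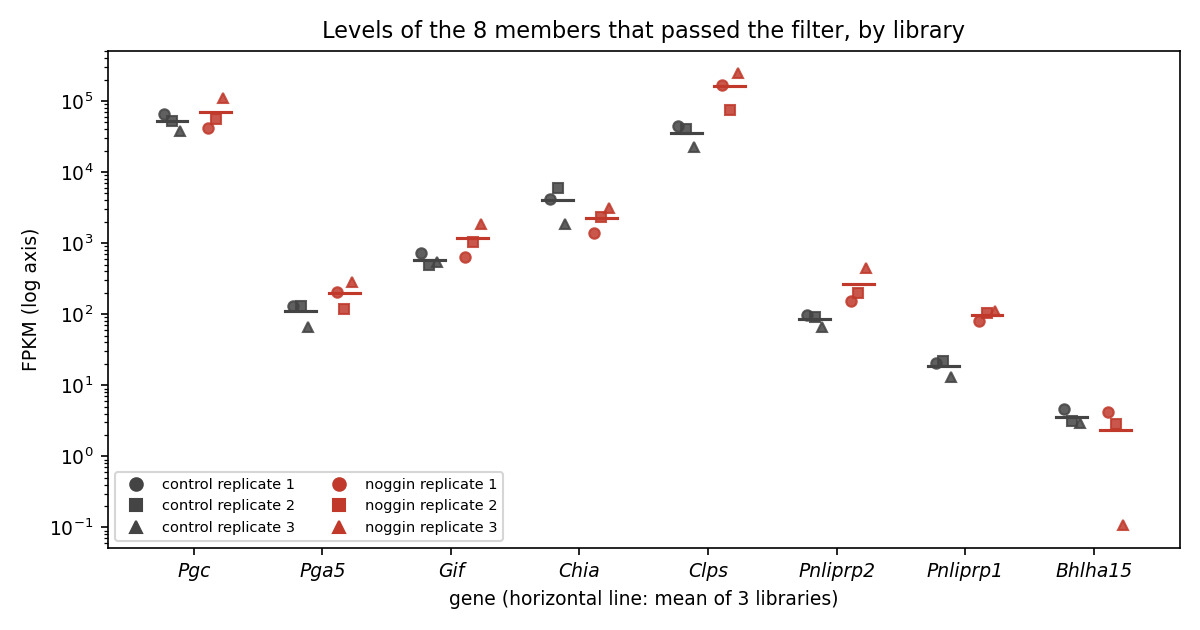
FPKM of 8 chief cell genes in each library on a log axis, with control libraries in grey and noggin libraries in red, and a line at the mean of each group. Clps, Pnliprp2 and Pnliprp1 have every noggin library above every control library, and Bhlha15 has 1 noggin library at 0.107 FPKM.

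Among the pepsinogens, Pgc (chromosome 17, 47726842 to 47734482), which encodes pepsinogen C, was at 66218, 51850 and 37488 FPKM in control replicates 1 to 3. In noggin replicates 1 to 3 it was at 42138, 56451 and 110445 FPKM. The groups overlapped, with noggin replicate 3 above all other libraries. On the log2 scale the difference was 0.34 (95% confidence interval -1.67 to 2.35, limma adjusted p = 0.819), and it was negative after rescaling to the same total FPKM (-0.37), after rescaling to the same total of the other genes (-0.24), with quantile normalization (-0.87), after correction for transcript length (-0.040) and without noggin replicate 3 (-0.050). Fitted without the mean-variance trend, the interval was narrower, -0.63 to 1.31 (limma adjusted p = 0.614).

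Pga5 (chromosome 19, 10668956 to 10678071) encodes a pepsinogen of the A type. It was at 130, 131 and 66.7 FPKM in control replicates 1 to 3 and at 207, 118 and 281 FPKM in noggin replicates 1 to 3. Noggin replicate 2 lay within the range of the controls, and the other noggin libraries lay above it. The difference of 0.86 on the log2 scale did not pass (SE 0.382, limma adjusted p = 0.198), and it was 0.54 without control replicate 3. Pga5 was thus present at a far lower level per length than Pgc in each library, and its log2 ratio to Pgc was between -9.11 and -7.66 in all 6.

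Gif (chromosome 19, 11747554 to 11763447; Cblif in current nomenclature) encodes intrinsic factor. It was at 729, 485 and 542 FPKM in control replicates 1 to 3 and at 638, 1043 and 1841 FPKM in noggin replicates 1 to 3. Noggin replicates 2 and 3 were above all controls, and noggin replicate 1 was below control replicate 1. This gave a log2 fold change of 0.89 (95% confidence interval -0.01 to 1.80, limma adjusted p = 0.192), and one of 0.50 without noggin replicate 3.

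Chia (chromosome 3, 106113229 to 106132120; Chia1 in current nomenclature), the acidic chitinase that digests chitin in the stomach, differed in sign from the other abundant members. It was at 4241, 6009 and 1882 FPKM in control replicates 1 to 3 and at 1381, 2308 and 3088 FPKM in noggin replicates 1 to 3. The groups overlapped through control replicate 3, and the spread within the controls was 3.19-fold. Its log2 fold change was -0.76 (SE 0.504, limma adjusted p = 0.355), and it was -0.40 without control replicate 2, -0.44 without noggin replicate 1 and -1.24 without control replicate 3. Among all genes of a library its rank was between 9 and 22 in controls and between 26 and 115 in noggin libraries.

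Clps (chromosome 17, 28558149 to 28560766) encodes colipase, the small cofactor that anchors pancreatic lipase to fat droplets in the presence of bile salts. It was at 44841, 39748 and 22776 FPKM in control replicates 1 to 3. In noggin replicates 1 to 3 it was at 168951, 73512 and 244835 FPKM. Each noggin library lay above each control library, and the noggin libraries themselves differed by up to 3.33-fold. The log2 fold change of 2.08 (SE 0.968, 95% confidence interval -0.17 to 4.32) did not pass the test (limma adjusted p = 0.212). The width of that interval depended on the fit. Without the mean-variance trend the SE was 0.491 and the interval 0.92 to 3.23 (limma adjusted p = 0.0905). With no filter on low values the SE was 3.23 (limma adjusted p = 0.737). Clps made up 7.08%, 5.94% and 3.82% of all FPKM in control replicates 1 to 3 and 14.3%, 9.22% and 20.6% in noggin replicates 1 to 3. Its annotated transcripts are short, with a median of 491.5 bases, and among all tested genes with transcripts under 1000 bases the median log2 fold change was 0.76. After correction for transcript length Clps was at 1.08 (SE 0.424, limma adjusted p = 0.263).

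Pnliprp1 encodes pancreatic lipase-related protein 1, a relative of pancreatic lipase with little known lipase activity of its own. It was at 20.7, 22.2 and 13.0 FPKM in control replicates 1 to 3 and at 80.7, 104 and 112 FPKM in noggin replicates 1 to 3. The groups were far apart, and the 3 noggin libraries agreed within 1.39-fold. Pnliprp1 rose 5.32-fold on the mean FPKM, from 18.6 ± 4.94 to 99.0 ± 16.3 FPKM (mean ± SD, n = 3 each). On the log2 scale this was 2.37 (95% confidence interval 1.78 to 2.97, SE 0.256), with a limma adjusted p = 0.0103. It stayed called after rescaling to the same total FPKM (1.68, limma adjusted p = 0.0315) and after correction for transcript length (2.10, limma adjusted p = 0.0234, where 0.626% of tested genes were called higher). The call was lost without control replicate 1 (2.46, limma adjusted p = 0.0660), without control replicate 3 (2.14, limma adjusted p = 0.0506) and with no filter on low values (2.37, limma adjusted p = 0.0642).

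Pnliprp2 encodes pancreatic lipase-related protein 2, an enzyme that cleaves galactolipids and milk fat. It was at 96.1, 90.7 and 66.4 FPKM in control replicates 1 to 3 and at 155, 196 and 446 FPKM in noggin replicates 1 to 3. All noggin libraries were above all controls, with noggin replicate 3 highest. The log2 fold change of 1.51 (SE 0.384, 95% confidence interval 0.61 to 2.40) did not pass (limma adjusted p = 0.0817).

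The last 3 members were low or close to 0. Lipf (chromosome 19, 33961187 to 33976810), which encodes gastric lipase, was listed at 0 in 5 libraries and at 0.0206 FPKM in control replicate 3. Cpb1 (chromosome 3, 20248264 to 20275733), which encodes pancreatic carboxypeptidase B, was listed at 0 in 4 libraries, at 0.0183 FPKM in control replicate 3 and at 0.440 FPKM in noggin replicate 1. Neither passed the filter, and no fold change is given for them. Bhlha15 (chromosome 5, 144190286 to 144194441) was at 4.61, 3.17 and 2.96 FPKM in control replicates 1 to 3 and at 4.15, 2.82 and 0.107 FPKM in noggin replicates 1 to 3. Noggin replicate 3 was far below the rest, and it was the noggin library in which the other 7 tested members were highest. The log2 fold change of Bhlha15 was -0.70 (SE 0.573, limma adjusted p = 0.454), -0.03 without that library and -1.14 without noggin replicate 1.

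**Figure D2:**
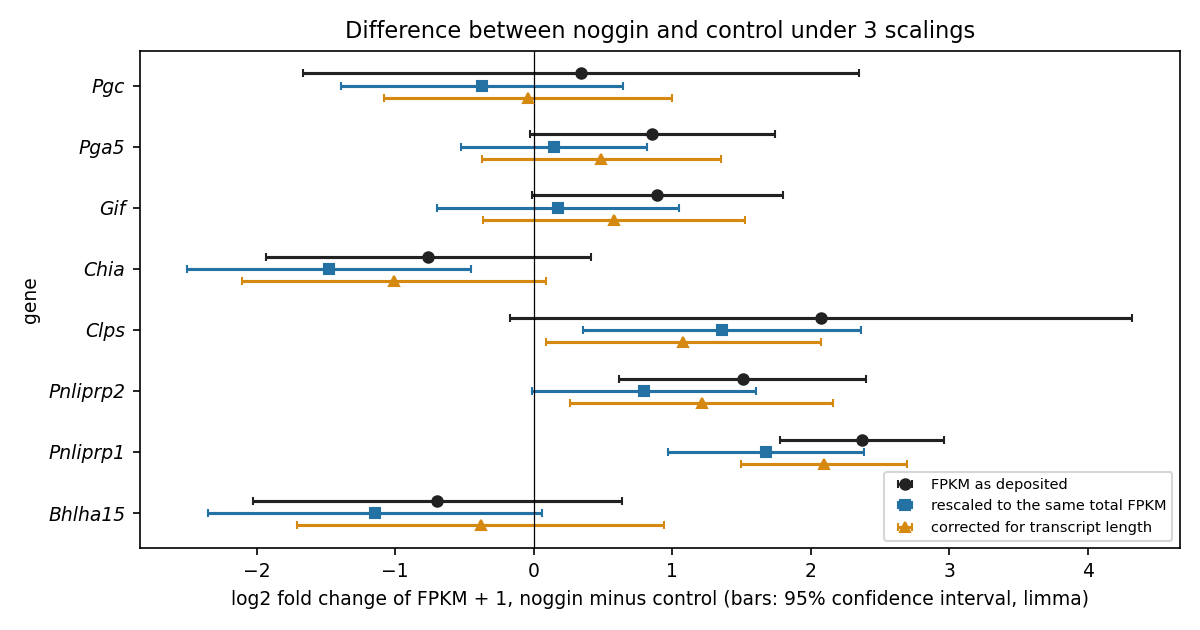
Log2 fold change of each of the 8 tested genes, noggin minus control, with 95% confidence intervals from limma, for FPKM as deposited (black), rescaled to the same total FPKM (blue) and corrected for transcript length (orange). Pnliprp1 lies above 0 in all 3, at 2.37, 1.68 and 2.10, and of the 3 values of Pgc the one as deposited, 0.34, is positive.

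Rescaling to the same total FPKM lowered the median of all tested genes from -0.03 to -0.63. Relative to that median the rescaled log2 fold changes were 2.31 for Pnliprp1, 1.99 for Clps, 1.43 for Pnliprp2, 0.81 for Gif, 0.78 for Pga5, 0.26 for Pgc, -0.52 for Bhlha15 and -0.85 for Chia. The order of the members from Pnliprp1 and Clps at the top to Chia at the bottom was that of the values as deposited. Rescaling multiplies all genes of a library by the same factor, so this order could hardly change and its being kept is no check. The confidence intervals of neighbours in this order overlapped.

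Libraries of 1 group differed from each other in a way that many members shared. Control replicate 3 was the lowest control for 7 of the 8 tested members, all but Gif. Noggin replicate 3 was the highest noggin library for 7 of 8, all but Bhlha15. The summed FPKM of the 10 members was 116281, 98338 and 62837 in control replicates 1 to 3 and 213556, 133735 and 361048 in noggin replicates 1 to 3. The log2 difference of the sums was 1.28 (exact permutation p = 0.1, two-sided, the smallest that 3 against 3 libraries allow). As a share of all FPKM the members made up 18.4%, 14.7% and 10.5% in control replicates 1 to 3 and 18.0%, 16.8% and 30.4% in noggin replicates 1 to 3, so the shares overlapped. The log2 difference was 0.56 after rescaling to the same total (exact permutation p = 0.3), 0.55 after the length correction (exact permutation p = 0.5) and 0.30 with Clps left out of the sum (exact permutation p = 0.6). Clps and Pgc together made up 93.1% to 98.8% of the sum in each library.

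Ratios between members were taken within each library on log2(FPKM + 1), for 5 pairs. The log2 ratio of Clps to Pgc was -0.56, -0.38 and -0.72 in control replicates 1 to 3 and 2.00, 0.38 and 1.15 in noggin replicates 1 to 3. Colipase was thus below pepsinogen C in every control library and above it in every noggin library, a mean difference of 1.73 (exact permutation p = 0.1, adjusted p = 0.167 over the 5 ratios). After the length correction the difference was 1.12 (exact permutation p = 0.1), and the groups still did not overlap. The log2 ratio of Pnliprp2 to Pgc was -9.41, -9.14 and -9.12 in control replicates 1 to 3 and -8.07, -8.16 and -7.95 in noggin replicates 1 to 3, a difference of 1.16 (exact permutation p = 0.1, adjusted p = 0.167). Across the alternatives tried for it, this difference ranged from 1.07 to 1.25.

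The other ratios differed less. The log2 ratio of Gif to Pgc was -6.45 ± 0.317 in controls and -5.90 ± 0.143 in noggin libraries (mean ± SD, n = 3 each), with no overlap and a difference of 0.55 (exact permutation p = 0.1, adjusted p = 0.167). The groups overlapped for Pga5 to Pgc (difference 0.51, exact permutation p = 0.2, adjusted p = 0.2). They also overlapped for Pnliprp1 to Pnliprp2, at a difference of 0.86 (exact permutation p = 0.2, adjusted p = 0.2), since that ratio in noggin replicate 3 (-1.99) was level with control replicate 2 (-1.98). For Pnliprp1 to Pnliprp2 the groups did not overlap with pseudocounts of 0.1 (difference 0.91) and 0.01 (difference 0.92) or after the length correction (difference 0.88), each at an exact permutation p = 0.1.

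**Figure D3:**
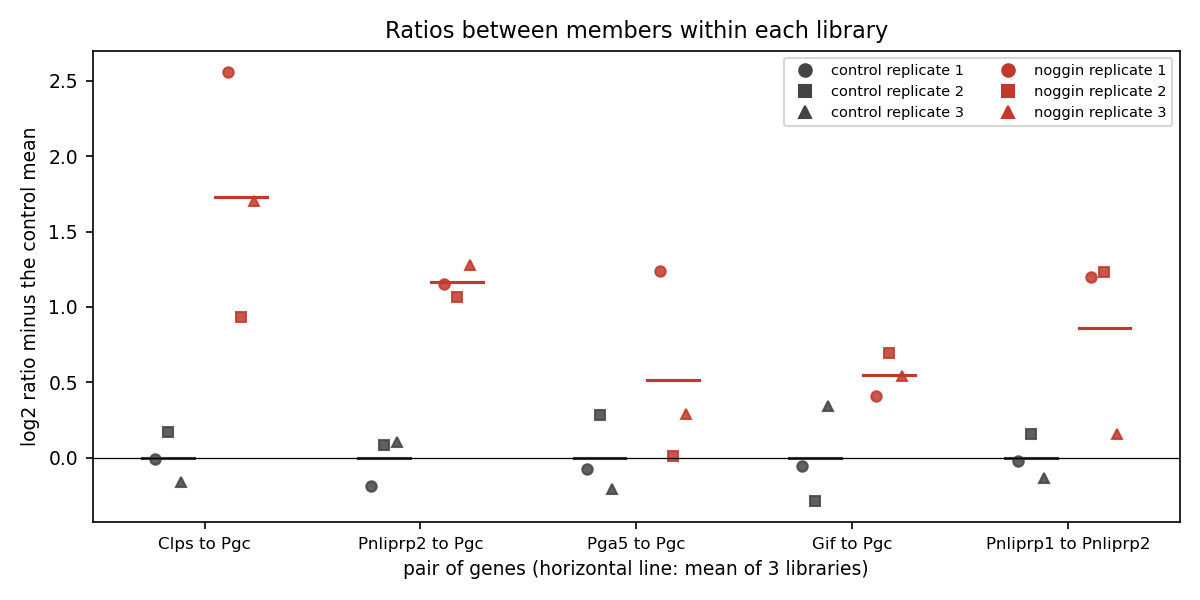
Log2 ratio of 5 pairs of chief cell genes in each library, minus the mean of the 3 control libraries, with control libraries in grey and noggin libraries in red. The noggin libraries lie above all controls for Clps to Pgc, Pnliprp2 to Pgc and Gif to Pgc, with mean differences of 1.73, 1.16 and 0.55.

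Likeness between genes was measured as the root mean square difference of their log2(FPKM + 1) values over the 6 libraries, after subtracting each gene's own mean. Within the members, Pgc and Gif were most alike (0.340), followed by Gif and Pnliprp2 (0.380). Pgc and Clps were 0.990 apart. The 5 genes outside the members closest to Pgc, of 6782 compared, were Nrm (0.174), Alg8 (0.187), Slc35d1 (0.189), Ell2 (0.189) and Sel1l3 (0.191). ALG8 is a glucosyltransferase of the endoplasmic reticulum that builds the sugar chains of secreted proteins, and SLC35D1 carries nucleotide sugars into that compartment. Nrm, the closest, Ell2 and Sel1l3 are not described here, and whether the 5 genes share a function was not tested. Closest to Clps were Cd14 (0.275), Gstm3 (0.279), Chac1 (0.279), Eif4ebp1 (0.290) and Pla2g1b (0.303).

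Pla2g1b, a secreted phospholipase A2 known from pancreatic juice, was itself among the abundant transcripts. It was at 14638, 11592 and 7611 FPKM in control replicates 1 to 3 and at 32118, 17220 and 53841 FPKM in noggin replicates 1 to 3. Its groups did not overlap, and its libraries had the same order as those of Clps. The log2 fold change of 1.51 (SE 0.640) did not pass (limma adjusted p = 0.181), and its transcript, at 419 bases, is short too. After the length correction it was at 0.44 (limma adjusted p = 0.597).

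Clps, Pnliprp1, Pnliprp2 and Cpb1 are also enzymes or cofactors of the exocrine pancreas, so 30 other acinar genes were examined. Of these, 11 were tested, 1 was higher (1.75% of all tested genes were), 0 were lower and 10 did not pass, with a median log2 fold change of 1.51 against -0.03 for all tested genes. At an unadjusted p under 0.05, where 26.7% of all tested genes passed, 8 of the 11 were higher and 1 was lower, Amy1 (salivary amylase, -0.83, named after its value was seen). Of the 11, 8 have transcripts under 1000 bases, a length class with a median of 0.76 over all tested genes, and after the length correction the median of the 11 was 0.65. Klk1, the tissue kallikrein, rose from 15.8 ± 3.53 to 139 ± 47.2 FPKM (mean ± SD, n = 3 each), which is 3.02 on the log2 scale (limma adjusted p = 0.00850, SE 0.298). That call was lost without control replicate 1 (limma adjusted p = 0.0660) and with no filter on low values (limma adjusted p = 0.0642). The trypsinogens Try10 and Try4, close copies between which reads may have been divided, were at 2.31 (limma adjusted p = 0.0566) and 2.19 (limma adjusted p = 0.0647), and after the length correction at 1.63 (limma adjusted p = 0.150) and 1.46 (limma adjusted p = 0.148). Cel, the bile salt-dependent lipase, was at 1.00 (limma adjusted p = 0.0831). The number called was 4 of 11 after rescaling to the same total, where 8.93% of all tested genes were called, and 6 of 11 without noggin replicate 2, where 18.9% were.

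Some defining enzymes of the pancreas were at or near 0 in the same libraries, and other acinar genes were not. Named after their values were seen, Amy2a5, Cela3b and Cpa1, which encode pancreatic amylase, an elastase and carboxypeptidase A, were listed at 0 in all 6. In total 11 of the 30 acinar genes stayed under 1 FPKM in each library, among them Ctrb1, a chymotrypsinogen, at no more than 0.457 FPKM. Also named after their values were seen, Cela1, an elastase, was at 68.6 to 415 FPKM and Sycn, a zymogen granule protein, at 42.3 to 334 FPKM over the 6 libraries.

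The secretory apparatus was examined through 14 genes that act in zymogen granules or are known to depend on BHLHA15. Of 10 tested, 2 were higher (1.75% of all tested genes were), 0 were lower and 8 did not pass. The median log2 fold change was 0.19, and 0.26 after the length correction. At an unadjusted p under 0.05, where 26.7% of all tested genes passed, 4 of the 10 were higher and 2 were lower. Copz2, a coatomer subunit, rose from 22.8 ± 1.66 to 59.5 ± 12.6 FPKM (1.33 on the log2 scale, SE 0.213, limma adjusted p = 0.0330). Tmed6, a cargo receptor of the early secretory pathway, rose from 129 ± 27.9 to 396 ± 132 FPKM (1.58 on the log2 scale, SE 0.286, limma adjusted p = 0.0429). Both calls were lost after the length correction, at 0.69 (limma adjusted p = 0.113) and 0.90 (limma adjusted p = 0.173), and with each of control replicates 1, 2 and 3 or noggin replicate 1 left out. They were also lost after rescaling to the same total, at 0.63 (limma adjusted p = 0.129) and 0.86 (limma adjusted p = 0.0539). Of the 16 alternatives, the Copz2 call was lost under 9 and the Tmed6 call under 13. Without noggin replicate 2, 4 of the 10 were called, where 18.9% of all tested genes were. Vamp8, a SNARE protein of granule release, was at 1.05 (limma adjusted p = 0.0969), and Ccpg1, a receptor for the turnover of endoplasmic reticulum, at -0.73 (limma adjusted p = 0.101).

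A further list held 8 other genes tied to chief cells or to their precursors. Of these, 6 were tested and limma called 0, with 2 of the 6 at an unadjusted p under 0.05 (26.7% of all tested genes) and 2 called without noggin replicate 2 (18.9% of all tested genes). The median log2 fold change was -0.53, with 1 positive and 5 negative. Of the 6, 3 have transcripts of 3000 bases or more, a length class with a median of -0.45 over all tested genes, and after the length correction the median of the 6 was -0.15. Cym, the milk-clotting protease chymosin, was at 16.5, 1.04 and 8.09 FPKM in control replicates 1 to 3, and in noggin replicates 1 to 3 at 0.0385, 1.97 and 0 FPKM. The groups overlapped, and its log2 fold change was -2.24 (limma adjusted p = 0.138). Tnfrsf19, a receptor found on a subset of chief cells, was at -0.82 (limma adjusted p = 0.162). It was at 1.03, 1.63 and 1.11 FPKM in control replicates 1 to 3 and at 0.126, 0.825 and 0 FPKM in noggin replicates 1 to 3. Tnfrsf19 thus passed the filter only through the controls, which favours a negative value. It was 1 of the 2 genes at an unadjusted p under 0.05 and 1 of the 2 called without noggin replicate 2. The transcription factor Sox9 was at -0.69 (limma adjusted p = 0.249) and the ubiquitin ligase Rnf43 at -0.37 (limma adjusted p = 0.502), and after the length correction they were at -0.29 and -0.0032.

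Markers of other cells moved between groups in the same libraries, and their part in the chief cell values was not tested. Over all tested genes 1.75% were called higher and 0.695% lower. The counts of called markers are not corrected for transcript length, and genes of 3000 bases or more had a median of -0.45 over all tested genes. The summed FPKM of 5 mucous neck markers was 2456 to 3362 in controls and 10765 to 25864 in noggin libraries, with 5 of 5 called higher. The sum of 10 parietal markers was 32925 to 40176 in controls and 28731 to 32036 in noggin libraries, with 5 of 10 called lower. For 4 pit cell markers the sums overlapped (9170 to 13966 and 9098 to 23640) and limma called 0. At an unadjusted p under 0.05 (26.7% of all tested genes) 1 of the 4 pit markers passed, Muc5ac, which was lower (-1.19) and is named after its value was seen. The other 3, Tff1, Gkn1 and Gkn2, had positive values as deposited. Of the 4, 2 have transcripts under 1000 bases, a length class with a median of 0.76 over all tested genes. After the length correction all 4 were negative, at -0.57 for Muc5ac, -0.02 for Tff1, -0.17 for Gkn1 and -0.48 for Gkn2. Enteroendocrine markers summed to 441 to 2678 in controls and 1893 to 28591 in noggin libraries, with 2 of 6 called higher. Leukocyte markers summed to 6.08 to 7.76 in controls and 29.4 to 260.1 in noggin libraries, with 1 of 4 tested called higher. Of these, Cd52, Fcer1g and Laptm5, named after their values were seen, were under 1 FPKM in every control library. They passed the filter only through the noggin libraries, so the count of 1 of 4 cannot be read against the share of all tested genes. In these lists 0 markers were listed at 0 in all 6 libraries. Relative to the parietal markers, the sum of the chief cell members was 3.53, 2.63 and 1.56 in control replicates 1 to 3 and 6.67, 4.23 and 12.6 in noggin replicates 1 to 3, without overlap. This ratio was not taken without Clps or after the length correction. With Clps left out, the log2 difference of the member sum alone was 0.30 (exact permutation p = 0.6).

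**Figure D4:**
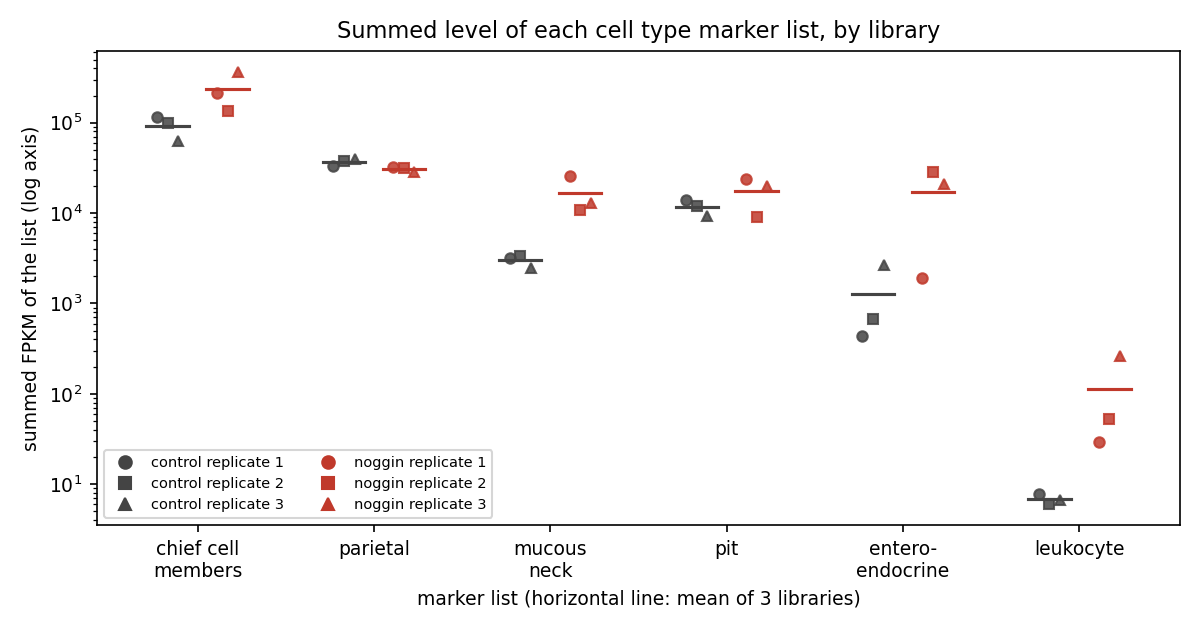
Summed FPKM of the chief cell members and of 5 marker lists in each library on a log axis, with control libraries in grey, noggin libraries in red and a line at each group mean. The chief cell sum is the highest of the 6 lists in every library, and the mucous neck sums of the noggin libraries, 10765 to 25864, lie above those of the controls.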

How the data were processed

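The authors deposited FPKM for 23284 genes in 6 libraries. Per the labels' protocols, SMART-Seq libraries were made from DNase-treated total RNA and read as single ends. The submitters' processing notes name mm10, bcl2fastq and FastQC 0.10.0; aligner, quantifier, annotation and strand: not given in the sources used here. Depth is unknown. Groups and replicate numbers came from sample titles.

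The 10644 genes that reached 1 FPKM in 3 or more libraries were tested on log2(FPKM + 1) with limma 3.58.1 in R 4.3.3 (mean-variance trend, group as only term, two-sided, Benjamini-Hochberg over all tested genes, called under 0.05). The fit was tested on simulated data. Sums and ratios had two-sided exact permutation tests. Members and lists were chosen with earlier results of these data known. Named are all members, up to 4 genes per list (called ones by size, then by unadjusted p), Nog, Atp4a, Atp4b, and the 5 genes most like Pgc and Clps (mean of at least 5 FPKM, predicted genes left out). Coordinates and lengths (median over transcripts) are from the GENCODE M21 basic set, GRCm38, where 20911 symbols matched directly and 1906 through a synonym. The length correction subtracts each library's lowess trend of deviation on log length. Alternatives were other pseudocounts, filters and scalings, no trend, a replicate block, the length correction and each library left out. The length correction of ratios and sums, the sum without Clps and all settings for genes outside the members were added after seeing the data.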

Additional observations from a re-analysis of the deposited data

How the results depend on the processing

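The 5 tested members Clps, Pnliprp1, Pnliprp2, Pga5 and Gif stayed positive under all 16 alternatives. Their lowest log2 fold changes were 0.87, 1.68, 0.80, 0.15 and 0.13, in that order. Chia stayed negative under all 16. Bhlha15 stayed negative under all 15 in which it was tested, and it did not pass the stricter filter of 5 FPKM. The other filters, the fit without the trend and the replicate block leave the fold change itself unchanged, so no sign could turn under them. For Clps, Pnliprp2 and Pnliprp1 the groups do not overlap, so leaving out a library or changing the pseudocount could not turn the sign either. For those genes only the length correction, the rescalings and quantile normalization could have turned it. Pgc turned negative with the length correction (-0.040), after rescaling to the same total (-0.37) or to that of non-members (-0.24), with quantile normalization and without noggin replicate 3 (-0.050), and ran from -0.050 to 0.65 with a library left out. With quantile normalization Pgc and Clps take the same values in exchanged places (-0.87 and 0.87), because they are the first and second gene of every library. Atp4b, at 0.22, turned negative with the length correction (-0.17), quantile normalization (-0.56), rescaling to the same total (-0.50) and rescaling to that of non-members (-0.36). The number of members called was 0 with no filter on low values, and 0 to 1 with a library left out. The median log2 fold change of the members was 0.25 with quantile normalization, 0.16 after rescaling to the same total and 0.29 after rescaling to that of non-members. The median of all tested genes in these settings was -0.02, -0.63 and -0.52, against -0.03 as deposited. Relative to the median of all tested genes Pgc was at 0.26 and 0.28 after the rescalings. It was at -0.03 with the length correction, -0.06 without noggin replicate 3 and -0.85 with quantile normalization. Over all tested genes 260 were called, 186 higher and 74 lower. The total, higher and lower counts were 90, 66 and 24 with the length correction, 12, 8 and 4 with no filter, 83, 66 and 17 without the trend, 93, 72 and 21 with a pseudocount of 0.01, 111, 85 and 26 with 0.1, 474, 243 and 231 with quantile normalization, 528, 116 and 412 after rescaling to the total of non-members, and 950, 130 and 820 after rescaling to the same total. Leaving out 1 library gave 9 to 2012, 4 to 1187 and 5 to 825. Same-numbered libraries of the 2 groups did not deviate together (correlations of 0.11, -0.14 and 0.01 across genes for numbers 1 to 3). With the replicate block 160 genes were called, 128 higher and 32 lower, and Pnliprp1 was still the 1 member called. The cause of these shifts was not tested.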
